A study of Mus musculus with 48 samples.

Results

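The NADPH oxidase and nitric oxide synthase genes described here were 9 of the 47561 genes listed for each lung: the oxidase Nox4, the oxidase subunits Cyba, Ncf1 and Ncf4, the dual oxidases Duox1 and Duox2, and the synthases Nos1, Nos2 and Nos3. They were taken by symbol, and each had 1 value in all 48 mice. RNA of whole lungs of adult mice was sequenced after enrichment for polyadenylated RNA, with 1 library per mouse. Males and females of C3H/HeN (here C3H) and C57Bl/6 mice (C57Bl/6N in the study's methods, here C57B), written C3HM, C3HF, C57BM and C57BF, were injected with aurothioglucose (ATG) or with saline. They were then kept in hyperoxia or in room air, which gave 16 groups of 3 mice. ATG is a gold compound that inhibits thioredoxin reductase and was given at 25 mg/kg, hyperoxia was over 95% oxygen, and lungs were taken after 96 h in room air or hyperoxia. The saline groups rest on the sample labels, since the study's design text describes ATG pretreatment of all mice.

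NADPH oxidases pass electrons from NADPH across a membrane to oxygen, so that superoxide or hydrogen peroxide is formed. Nox4 makes hydrogen peroxide without a trigger once it is bound to p22phox, the small membrane protein encoded by Cyba. The phagocyte enzyme pairs p22phox with the catalytic subunit gp91phox (Cybb) and fires only after cytosolic subunits, p47phox (Ncf1) and p40phox (Ncf4) among them, join it together with Rac. Dual oxidases make hydrogen peroxide at the airway and thyroid surface. Nitric oxide synthases turn arginine and oxygen into nitric oxide and citrulline with tetrahydrobiopterin as cofactor: Nos3 in endothelium, Nos1 in neurons and muscle, and Nos2 mainly where it is induced by inflammation. Without enough arginine or cofactor a synthase can release superoxide.

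The members lie apart in the genome except for the dual oxidases, which sit next to each other. In GRCm38 coordinates, Nox4 is at chr7:87246096-87398710 on the plus strand, Cyba at chr8:122424776-122432930 on the minus strand, and Ncf1 at chr5:134220053-134229625 on the minus strand. Ncf4 is at chr15:78244801-78262580 on the plus strand. Duox1 is at chr2:122315672-122347972 on the plus strand and Duox2 at chr2:122279247-122298449 on the minus strand. Nos1 is at chr5:117781032-117958840, Nos2 at chr11:78920787-78960254 and Nos3 at chr5:24364810-24384474, all on the plus strand.

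Promoter windows from 250 bases before to 50 bases after a start given by RefSeq were found for 6 of the 9 members in a table of GRCm38.p6. RefSeq starts can differ from those of GENCODE used above, and the Nox4 window lies inside the GENCODE gene, downstream of its start. Those of Nox4 and Cyba are shown because the products of these genes form 1 enzyme. Their transcripts also moved in opposite directions over both strains in hyperoxia, with the rise of Cyba clear in C3H and not in C57B. Capitals mark the GC box, GGGCGG, searched on both strands.
Nox4 (chr7:87246399-87246698, plus strand): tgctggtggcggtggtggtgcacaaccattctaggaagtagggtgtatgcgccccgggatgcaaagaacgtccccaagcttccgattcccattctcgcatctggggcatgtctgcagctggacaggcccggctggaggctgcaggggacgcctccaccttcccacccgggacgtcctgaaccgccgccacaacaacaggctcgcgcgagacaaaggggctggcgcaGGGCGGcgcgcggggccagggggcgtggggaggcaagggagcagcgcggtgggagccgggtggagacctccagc
Cyba (chr8:122432891-122433190, minus strand): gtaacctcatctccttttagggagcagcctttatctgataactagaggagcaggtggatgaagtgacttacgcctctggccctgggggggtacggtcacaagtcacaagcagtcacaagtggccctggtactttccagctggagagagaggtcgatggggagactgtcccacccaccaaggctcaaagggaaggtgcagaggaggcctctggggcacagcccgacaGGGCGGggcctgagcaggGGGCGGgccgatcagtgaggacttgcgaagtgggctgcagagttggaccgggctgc
The Nox4 window held 1 GC box and 24 CpG dinucleotides at a GC content of 68.3%, and the Cyba window held 2 GC boxes and 9 CpG dinucleotides at 60.7%. Of 32544 promoter windows of the same length, 35.9% held at least 1 GC box, so the match is common and marks no site.

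Expression was given as FPKM, which divides the fragments of a gene by its length in kilobases and by the number of fragments mapped, so levels can be compared between genes per length. Summed FPKM ran from 510933 to 748290 per mouse, and the absolute depth is unknown. The share of the sum taken by Scgb1a1, the main secretory protein of club cells, was 10.4 to 30.2% in room air and 1.20 to 7.17% in hyperoxia. The correlation of log2(FPKM + 1) between mice of 1 group had a median of 0.968. Among the C3HM mice given saline in room air, mouse 2 correlated at 0.933 with mouse 1 and 0.952 with mouse 3. Mice 1 and 3 correlated at 0.958. The alveolar type 2 marker Sftpc was at 2996 FPKM or more in every lung. Genes on chromosomes X, Y and M, Cybb and Nox1 among them, were listed at 0 in all mice. For each comparison log2(FPKM + 1) was fitted with limma for genes at 1 FPKM or more in at least 3 of the mice fitted, p-values were adjusted over all genes tested by the Benjamini-Hochberg method, and a change was called at an adjusted p under 0.05. A log2 change on this scale understates the change of genes near 1 FPKM.

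The 9 genes spanned more than 3 orders of magnitude in FPKM. Cyba was highest by far, at 140 to 313 FPKM over the 48 mice, followed by Ncf1, Ncf4 and Nox4 at medians of 13.9, 10.4 and 10.2. Nos3 and Nos2 were lower, at medians of 5.62 and 1.29, and Duox2, Nos1 and Duox1 were under 1 FPKM in every mouse, so 6 of the 9 members passed the filter. Nox4, Nos3, Ncf1 and Ncf4 overlapped in FPKM over the 48 mice, so the order among them depends on the group.

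**Figure D1:**
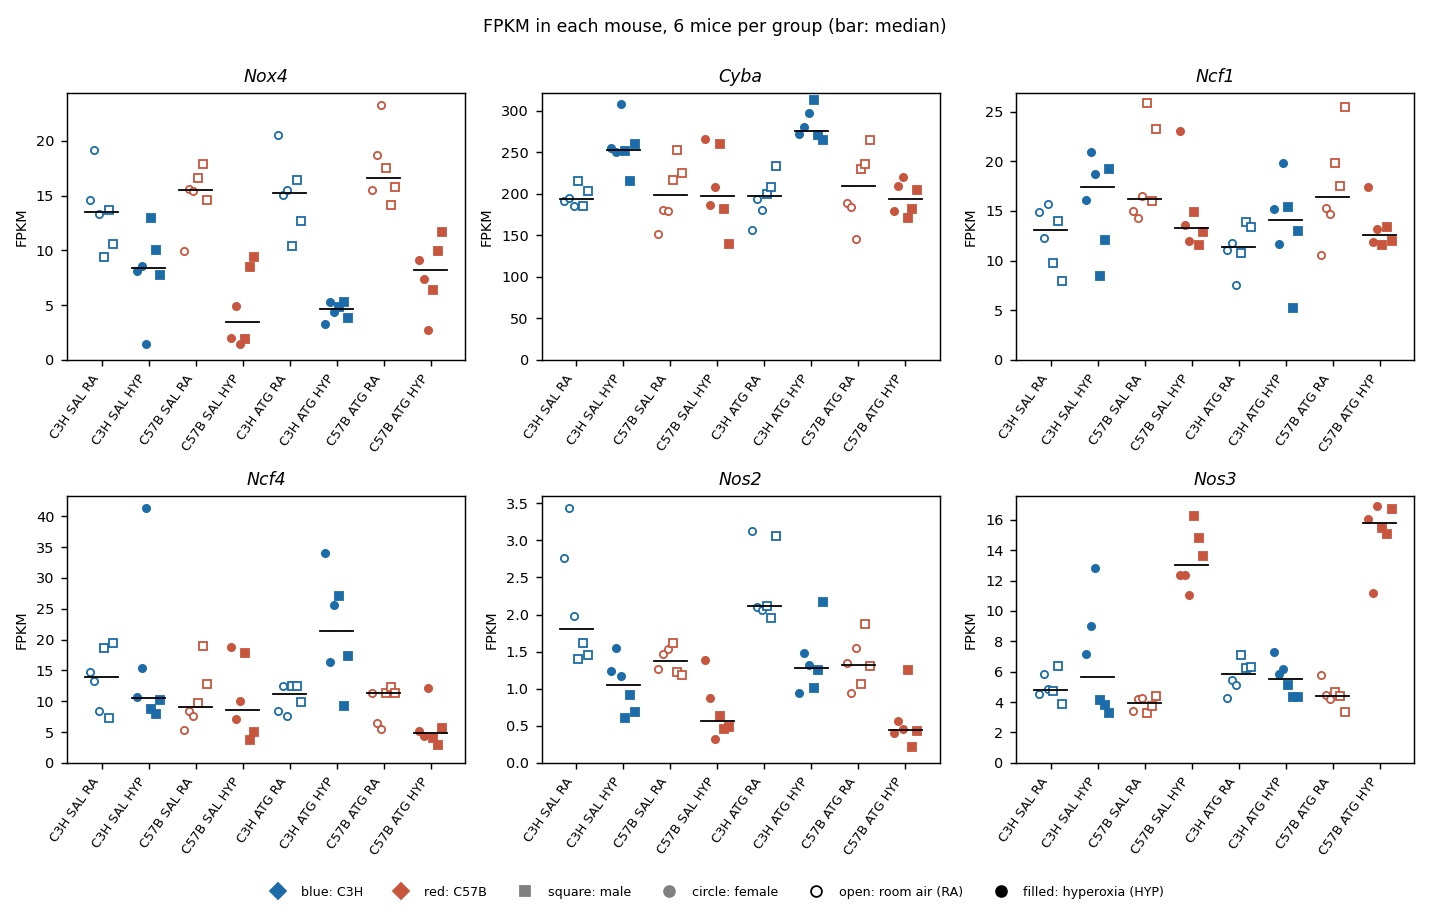
FPKM (linear axis) of the 6 members above the filter in each of the 48 mice, in 8 groups of 6 mice by strain, injection and air; squares are males, circles females, open symbols room air, filled symbols hyperoxia, and the bar is the median. In C57B, Nos3 in hyperoxia was at 11.1 FPKM or more in all mice against 5.75 or less in room air, while in C3H the groups overlapped.

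In room air and saline 1 of the 6 members was called between strains and 0 between sexes. The level of Ncf1, the p47phox organiser subunit, was lower in C3H than in C57B by a log2 difference of -0.54 (SE 0.15, limma adjusted p = 0.0379), against 11.8% of all genes called. Its FPKM had a median of 13.1 in C3H and 16.2 in C57B, and the 2 groups overlapped. Within males they did not, with the C3HM mice at 7.92 to 14.0 FPKM and the C57BM mice at 16.0 to 25.9. The call was lost when any of 9 of the 12 mice was left out (mice 1, 3, 13, 15, 25, 26, 37, 38 and 39), at adjusted p values of 0.0624 to 0.0957. It was also lost in 3 of 5 alternative fits, among them that without a filter (limma adjusted p = 0.0627). Without both C3HM mice 1 and 3, which leaves mouse 2 as the only C3HM mouse there, the difference was -0.33. The other members differed by -0.16 (Nox4) to 0.36 (Ncf4) and were not called, but leaving out C3HM mouse 2 made the difference of Ncf4 0.58 (adjusted p = 0.048). Neutrophil markers moved the same way as Ncf1, with 5 of the 10 tested lower in C3H, and their part in the result was not tested. Ncf1 overlaps Gtf2ird2 on the other strand, a gene at 1.12 to 5.54 FPKM that shares 329 30-base sequences with it.

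Between males and females in room air and saline no member was called, with differences (male minus female) from -0.31 for Nos2 to 0.53 for Ncf4, against 0.669% of all genes called. Without C3HM mouse 2 the difference of Ncf4 was 0.74 (adjusted p = 0.0224). For the difference of the strain effect between the sexes 0.00% of genes were called by limma, with 2538 at an unadjusted p under 0.05, and the largest value of a member was that of Ncf1 at -0.89 (adjusted p = 0.226). Without C3HM mouse 2 that value was -1.09 (adjusted p = 0.0188). Nos2 was at 1.98, 2.76 and 3.44 FPKM in the C3HF mice, above the other 9 mice, which were at 1.18 to 1.62. Its difference of the strain effect between the sexes was -0.50 (SE 0.27, adjusted p = 0.359) and was not called.

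In hyperoxia, 4 of the 6 members passed the test in the 24 saline mice, Nox4 and Nos2 as lower and Cyba and Nos3 as higher, against 60.1% of all genes called. With ATG the same 4 members passed in the same directions, against 61.8%. Since most genes changed, the number of members called was near the background, and the account below gives the direction and size for each. The median change of all genes tested was 0.01 with saline and 0.06 with ATG, on the log2 scale.

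Nox4, the constitutively active oxidase, fell in hyperoxia with either injection. With saline its FPKM in C3H ran from 9.35 over a median of 13.5 to 19.1 in room air and from 1.41 over 8.35 to 13.0 in hyperoxia. In C57B it ran from 9.92 over 15.5 to 17.8 in room air and from 1.45 over 3.45 to 9.35 in hyperoxia. Thus the C57B groups did not overlap, whereas the C3H groups did. With ATG no mouse in hyperoxia reached the lowest mouse in room air of its strain: the C3H mice were at 10.4 to 20.6 FPKM in room air and 3.23 to 5.31 in hyperoxia, and the C57B mice were at 14.1 to 23.3 and 2.70 to 11.7.

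The log2 change of Nox4 over both strains was -1.26 (SE 0.23, limma adjusted p = 0.000111) with saline and -1.34 (SE 0.14, adjusted p = 7.31e-08) with ATG. Within C57B it was -1.71 (SE 0.33, adjusted p = 0.000196) with saline, where 55.5% of genes were called, and -1.14 (SE 0.20, adjusted p = 7.16e-05) with ATG, where 56.2% were called. Within C3H it was -1.54 (SE 0.20, adjusted p = 2.84e-06) with ATG, where 47.9% were called. Within C3H given saline it was -0.80 (SE 0.33) and missed the threshold at an adjusted p of 0.0627, where 37.8% of genes were called. That value was called in 2 of 5 alternative fits, at -0.94 (adjusted p = 0.0241) when libraries were scaled by median ratios. It was also called with mouse 19, 31 or 32 left out (-0.80, -0.95 and -0.97). The difference between the strains in the hyperoxic change was 0.91 (C3H minus C57B, adjusted p = 0.207) with saline and -0.40 (adjusted p = 0.383) with ATG, so no strain difference was called. Without C3HF mouse 33 the saline difference was 1.24 (adjusted p = 0.037). The difference between the sexes in the change of Nox4 (male minus female) was 1.35 in C3H and 0.63 in C57B with saline. With ATG it was 0.46 in C3H and 0.82 in C57B. None of these was called (limma adjusted p = 0.416 to 0.943 without a filter).

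The lowest Nox4 values were found in single mice of several groups. Among the C3HF mice given saline in hyperoxia, Nox4 was at 8.11, 8.59 and 1.41 FPKM in mice 31, 32 and 33. Among the C57BM mice it was at 1.90, 8.45 and 9.35 FPKM in mice 19, 20 and 21. The C57BF mice 43, 44 and 45 were at 2.02, 4.89 and 1.45 FPKM, and the C3HM mice 7, 8 and 9 were at 13.0, 10.0 and 7.77, which overlapped the 9.35 to 13.7 FPKM of the C3HM mice in room air. Hyperoxic mice of 1 group thus differed up to several fold in Nox4. In whole lung, fewer cells of a type and less RNA per cell cannot be told apart. The fibroblast markers did not move as a list with Nox4, with 1 higher and 1 lower of 7 tested in hyperoxia with saline. Of 6 smooth muscle and myofibroblast markers 3 were higher and 0 lower, where 60.1% of all genes were called. The part of these cells in the change of Nox4 was not tested.

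Among the hyperoxic mice, neutrophil markers were high in those with the lowest Nox4. The summed FPKM of 12 neutrophil markers was 6390 in C3HF mouse 33, 4212 in C57BF mouse 45, 4969 in C57BM mouse 19 and 4068 in C57BF mouse 43, the 4 mice with the lowest Nox4. It was 187 and 296 in the C57BM mice 21 and 20, and 198 to 234 in the C3HM mice given saline. Sums over the list had medians of 204 in room air and 216 in hyperoxia in C3H with saline, and of 471 and 3134 in C57B. With ATG the medians were 159 and 773 in C3H, and 953 and 399 in C57B. High sums did not go with low Nox4 in room air: C57B mice given ATG there had sums of 233 to 3662 and Nox4 at 14.1 to 23.3 FPKM. Mice with small sums differed in Nox4. C3HM mouse 11 given ATG was at 5.31 FPKM with a sum of 167, below all C3H mice in room air, whereas the C3HM mice 7 and 8 given saline, each with a sum of 198, stayed within the range of C3HM mice in room air. The part of these cells in the level of Nox4 was not tested.

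**Figure D2:**
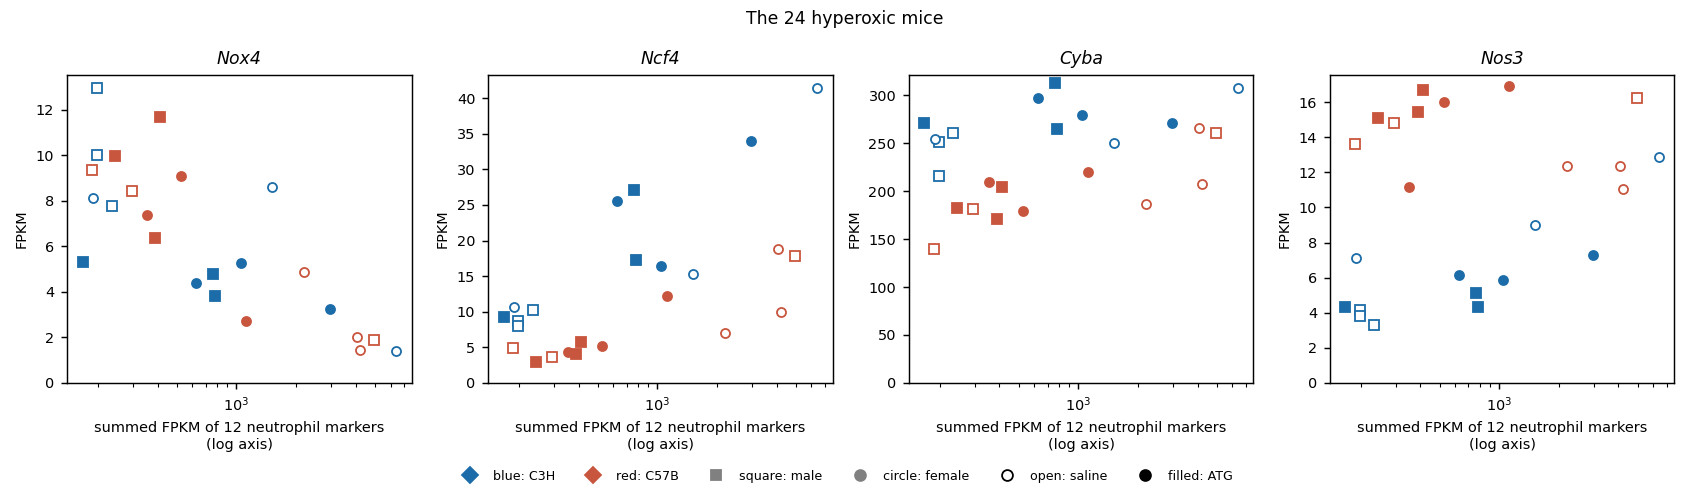
FPKM (linear axis) of Nox4, Ncf4, Cyba and Nos3 in the 24 hyperoxic mice against the summed FPKM of 12 neutrophil markers (log axis); blue is C3H, red C57B, squares are males, circles females, open symbols saline and filled symbols ATG. Nox4 lay at 1.41 to 2.02 FPKM in the 4 mice with the highest sums, and Nos3 was at 11.1 FPKM or more in all 12 C57B mice and at 8.99 or less in the C3H mice other than mouse 33.

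Cyba, the p22phox partner of Nox4 and of the phagocyte oxidase, moved in the opposite direction to Nox4 and did so in C3H. In C3H given saline its FPKM rose from 185 over 193 to 215 in room air to 216 over 253 to 308 in hyperoxia. In C3H given ATG it was at 156 to 233 FPKM in room air and 265 to 313 in hyperoxia. No C3H mouse in hyperoxia was as low as any C3H mouse in room air with the same injection. In C57B the groups overlapped, with medians of 198 in room air and 197 in hyperoxia with saline, and of 209 and 193 with ATG.

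The C57B means of Cyba differed in opposite directions in males and females. In C57BM mice the mean FPKM went from 231 to 194 with saline, with overlap, and from 243 to 186 with ATG, without overlap. In C57BF mice it went from 170 to 220 with saline, without overlap, and from 173 to 203 with ATG, with overlap. The difference between the sexes in the change (male minus female) was -0.65 (SE 0.24, limma adjusted p = 0.407) with saline and -0.62 (SE 0.16, adjusted p = 0.154) with ATG, where 0.0123% and 0.173% of genes were called, so neither passed the test. Without C57BM mouse 19 the saline value was -0.89 (adjusted p = 0.0457).

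The log2 change of Cyba in C3H was 0.38 (SE 0.12, limma adjusted p = 0.0169) with saline and 0.54 (SE 0.08, adjusted p = 1.75e-05) with ATG. After scaling by median ratios the first was 0.23 (adjusted p = 0.251) and the second 0.40 (adjusted p = 0.000558). In C57B the change was 0.03 (adjusted p = 0.843) with saline and -0.08 (adjusted p = 0.448) with ATG. With ATG the difference between the strains was 0.62 (SE 0.12, adjusted p = 0.00166), against 13.3% of genes called. With saline it was 0.35 (adjusted p = 0.184), and 0.47 (adjusted p = 0.0429) without C57BM mouse 19. Over both strains the change was 0.21 (SE 0.09, adjusted p = 0.042) with saline and 0.23 (SE 0.06, adjusted p = 0.00171) with ATG. Neither value over both strains was called after scaling, at 0.15 (adjusted p = 0.233) and 0.13 (adjusted p = 0.0579), and the saline call was lost when any of 13 of the 24 mice was left out (mice 2, 3, 7, 9, 13, 15, 19, 25, 26, 27, 33, 37 and 43), at adjusted p values of 0.0509 to 0.086.

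**Figure D3:**
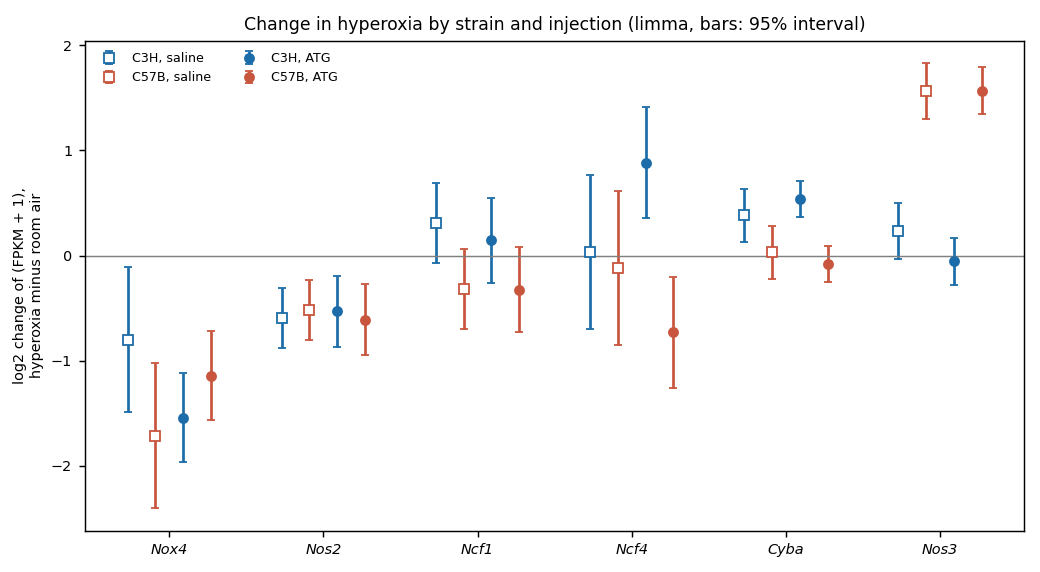
Log2 change of (FPKM + 1) from room air to hyperoxia (vertical axis) for the 6 members above the filter, by strain and injection; points are limma estimates and bars 95% intervals, with 6 mice in each air. Nos3 stood at 1.56 and 1.57 in C57B and at 0.23 and -0.06 in C3H, while the 4 intervals of Nos2 lay on the same side of 0.

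Ncf1 and Ncf4, cytosolic subunits of the phagocyte oxidase, were not called over both strains in hyperoxia with either injection. Ncf1 ran from 5.20 to 25.9 FPKM over the 48 mice with a median of 13.9. Its hyperoxic changes were 0.31 (adjusted p = 0.194) in C3H and -0.32 (adjusted p = 0.146) in C57B with saline, and 0.15 (adjusted p = 0.571) and -0.32 (adjusted p = 0.166) with ATG. None of these was called, but without C57BF mouse 43 the saline change in C57B was -0.45 (adjusted p = 0.037). The strain difference in the change was 0.63 (adjusted p = 0.115) with saline and 0.47 (adjusted p = 0.275) with ATG, and these became 0.73 (adjusted p = 0.0494) without C3HM mouse 2 and 0.68 (adjusted p = 0.0329) without C3HM mouse 11.

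Ncf4, which encodes p40phox, changed in opposite directions in the 2 strains when ATG had been given. In C3H its FPKM ran from 7.58 over 11.1 to 12.5 in room air and from 9.20 over 21.4 to 34.0 in hyperoxia, with 5 of 6 hyperoxic mice above all mice in room air. In C57B it ran from 5.43 over 11.3 to 12.3 in room air and from 2.89 over 4.77 to 12.2 in hyperoxia, with 4 of 6 hyperoxic mice below all mice in room air. The log2 change was 0.88 (SE 0.25, limma adjusted p = 0.00689) in C3H and -0.73 (SE 0.25, adjusted p = 0.0193) in C57B, and the difference between them was 1.61 (SE 0.36, adjusted p = 0.00533). The C57B call was lost without mouse 23, 40 or 47 (-0.63, -0.59 and -0.61), and at an adjusted p of 0.0536 with all 48 mice in 1 fit. With saline the changes were 0.03 (adjusted p = 0.957) in C3H and -0.12 (adjusted p = 0.792) in C57B, and the strain difference was 0.15 (adjusted p = 0.872).

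These values of Ncf4 are averages over sexes that lay apart. With saline the mean FPKM went from 15.1 to 8.97 in C3HM and from 13.8 to 8.80 in C57BM mice, and from 12.1 to 22.4 in C3HF and from 7.12 to 12.0 in C57BF mice, with overlap in all 4. The difference between the sexes in the change was -1.23 (SE 0.70, limma adjusted p = 0.354) in C3H and -1.42 (SE 0.70, adjusted p = 0.533) in C57B and was not called. With ATG the C57BM mice went from 11.7 to 4.22 FPKM without overlap, whereas the C57BF mice were at 7.76 and 7.25 and overlapped. That difference between the sexes was -1.17 (SE 0.51, adjusted p = 0.458).

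Neutrophil markers moved in the direction of Ncf4 in the mice given ATG, but not in every setting. In the ATG mice the difference between the strains in the hyperoxic change was positive for 6 of the 10 markers tested and negative for 0. Of all genes 13.3% were called there. In C3H given ATG, 6 of 10 markers were higher in hyperoxia, against 47.9% of all genes called. In C57B given ATG 0 of 10 were called, against 56.2%. The median change of the markers was 2.05 in C3H and -0.56 in C57B. The highest Ncf4 levels of all mice, 41.4 FPKM in C3HF mouse 33 given saline and 34.0 in C3HF mouse 34 given ATG, came with neutrophil sums of 6390 and 2976. However, C3HM mouse 10 given ATG was at 27.1 FPKM with a sum of 765. C57BF mouse 45 given saline was at 10.0 FPKM with a sum of 4212. In C57B given saline the median sum was 471 in room air and 3134 in hyperoxia, while the change of Ncf4 was -0.12. Of the monocyte and recruited macrophage markers, 4 of 9 had a positive strain difference with ATG. The part of these cells in the change of Ncf4 was not tested.

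Nos2, the inducible synthase, was low and fell in hyperoxia in both strains with both injections. With saline its FPKM ran from 1.40 over 1.80 to 3.44 in C3H in room air and from 0.605 over 1.04 to 1.55 in hyperoxia. In C57B it ran from 1.18 over 1.37 to 1.62 in room air and from 0.323 over 0.560 to 1.38 in hyperoxia. With ATG the medians were 2.11 and 1.28 in C3H and 1.32 and 0.443 in C57B. In each of these 4 settings 5 of 6 hyperoxic mice lay below all 6 mice in room air.

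The log2 change of Nos2 was -0.60 (SE 0.14, limma adjusted p = 0.00183) in C3H and -0.52 (SE 0.14, adjusted p = 0.00311) in C57B with saline. With ATG it was -0.53 (SE 0.16, adjusted p = 0.0101) in C3H and -0.61 (SE 0.16, adjusted p = 0.00323) in C57B. Over both strains it was -0.56 (SE 0.10, adjusted p = 5.1e-05) with saline and -0.57 (SE 0.11, adjusted p = 0.00021) with ATG. The strain difference in the change was -0.08 (95% interval -0.48 to 0.32) with saline and 0.08 (-0.40 to 0.56) with ATG. Of the neutrophil markers, 8 of 10 tested were higher in hyperoxia with saline, where 60.1% of all genes were called. Their median sums in room air and hyperoxia were 204 and 216 in C3H and 471 and 3134 in C57B with saline. With ATG the sums were 159 and 773 in C3H and 953 and 399 in C57B. The part of these cells in the change of Nos2 was not tested.

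Nos3, the endothelial synthase, had the largest strain difference in the hyperoxic change among the 6 members tested with saline, and with ATG it was as large as that of Ncf4, in the opposite direction (-1.62 and 1.61). In C57B given saline its FPKM ran from 3.25 over 3.94 to 4.37 in room air and from 11.1 over 13.0 to 16.2 in hyperoxia. In C57B given ATG it ran from 3.36 over 4.42 to 5.75 in room air and from 11.2 over 15.8 to 16.9 in hyperoxia. Thus all 12 hyperoxic C57B mice stood far above all 12 C57B mice in room air. In C3H the groups overlapped with both injections: 3.87 over 4.79 to 6.36 in room air and 3.30 over 5.64 to 12.8 in hyperoxia with saline, and 4.26 over 5.85 to 7.11 and 4.30 over 5.48 to 7.31 with ATG.

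The log2 change of Nos3 in C57B was 1.56 (SE 0.13, limma adjusted p = 4.82e-09) with saline and 1.57 (SE 0.11, adjusted p = 2.35e-10) with ATG. In C3H it was 0.23 (95% interval -0.04 to 0.50, adjusted p = 0.164) and -0.06 (-0.28 to 0.17, adjusted p = 0.707). The difference between the strains was -1.33 (SE 0.18, adjusted p = 0.00014) with saline, where 11.5% of genes were called, and -1.62 (SE 0.15, adjusted p = 1.38e-06) with ATG. Both were called in every alternative fit and with each mouse left out. Over both strains the change was 0.90 (SE 0.09, adjusted p = 5.34e-08) with saline and 0.76 (SE 0.08, adjusted p = 3.12e-08) with ATG, as an average of unequal changes.

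Within C3H the Nos3 values in hyperoxia lay apart by sex, although the difference did not pass the test. In C3HM given saline it was at 4.73, 6.36 and 3.87 FPKM in room air and 4.15, 3.79 and 3.30 in hyperoxia. In C3HF it was at 4.54, 5.84 and 4.85 FPKM in room air and 7.13, 8.99 and 12.8 in hyperoxia. The females in hyperoxia thus lay above all females in room air, while the males overlapped. With ATG the C3HM mean was 6.53 in room air and 4.59 in hyperoxia and the C3HF mean was 4.96 and 6.44. The difference between the sexes in the change (male minus female) was -1.10 (SE 0.26, limma adjusted p = 0.153) with saline and -0.75 (SE 0.21, adjusted p = 0.416) with ATG, so neither passed the test, where 0.00613% and 0.0309% of genes were called. The saline value was called with all 48 mice in 1 fit (adjusted p = 0.0249) and without C3HM mouse 2 (-0.94, adjusted p = 0.0173). The female C3H mouse with the highest Nos3, mouse 33, also had the highest neutrophil sum.

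Endothelial markers as a list did not rise with Nos3. In C57B given saline 2 of 12 endothelial markers were higher in hyperoxia and 7 lower, and in C3H 3 were higher and 7 lower. With ATG the counts were 3 higher and 7 lower in C57B and 2 higher and 9 lower in C3H. Of all genes, 55.5% were called in C57B and 37.8% in C3H with saline, and 56.2% and 47.9% with ATG. The summed FPKM of the 12 endothelial markers had medians of 2286 in room air and 1736 in hyperoxia in C57B given saline, and of 3056 and 2637 in C3H. Tek, the angiopoietin receptor, was at a median of 64.6 in room air and 13.6 in hyperoxia in C57B given saline, whereas Cdh5, the cadherin of endothelial junctions, was at 153 and 257. The part of endothelial cells in the change of Nos3 was not tested. Transcripts of Nos3 share 25.3% of their 30-base sequences with genes on the other strand. Those genes were low, with Gm15587 at 0 to 0.634 FPKM and Atg9b at 0 to 1.41 FPKM over all mice. The study's methods describe no library step that keeps strand, and whether the counting used strand is not given in the sources used here.

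Duox1, Duox2 and Nos1 stayed below 1 FPKM in all 48 mice, and their values were compared with exact two-sided permutation tests within strata of strain and sex, with unadjusted p-values over 18 tests. Duox2, a peroxide-producing oxidase of airway epithelium, was lower in hyperoxia. Its median was 0.0295 FPKM in hyperoxia and 0.0946 in room air with saline (exact permutation p = 0.0032875), and 0.0420 and 0.133 with ATG (exact permutation p = 0.0006375). In room air and saline the median was 0.200 in C3H and 0.0495 in C57B (exact permutation p = 0.025), with overlap between the strains. Between the sexes there, the exact permutation p was 0.1 for Duox1 (the smallest its ties allow), 0.9 for Duox2 and 0.14 for Nos1.

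Duox1 was above 0 in 11 of 48 mice. In room air and saline 5 of 6 C3H mice were above 0, with a highest value of 0.0602, and all 6 C57B mice were listed at 0 (exact permutation p = 0.02, also the smallest the ties allow). In hyperoxia with saline all 12 mice were listed at 0, against 5 of 12 above 0 in room air (exact permutation p = 0.02, the smallest possible). With ATG the same comparison gave an exact permutation p of 0.26. Duox1 and Duox2 share 724 30-base sequences, 13.8% of those of Duox1 and 10.6% of those of Duox2, so reads of one may have been given to the other. Of the club and secretory airway markers 3 of 7 were lower in hyperoxia and 0 higher with each injection, against 60.1% and 61.8% of all genes called. With saline their summed FPKM had medians of 99228 in room air and 33533 in hyperoxia in C3H, and of 112700 and 13867 in C57B. Sums of the ciliated airway markers had medians of 633 and 232 in C3H, and of 720 and 114 in C57B. The part of airway cells in the change of Duox2 was not tested. Of markers of the thyroid, which also uses dual oxidases, thyroglobulin (Tg) was at 0.0824 to 2.60 FPKM. Sums of 7 thyroid markers had medians of 7.28 in room air and 10.5 in hyperoxia in C3H given saline. In C57B given saline they were 10.2 and 4.24. With ATG they were 9.44 and 22.2 in C3H and 8.91 and 5.83 in C57B.

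Nos1, the neuronal synthase, was above 0 in 23 of 48 mice with a highest value of 0.337 FPKM. It gave exact permutation p values of 0.61 between strains, 0.33225 for hyperoxia with saline and 0.304875 with ATG. Its 2 highest values, 0.337 in C3HF mouse 27 and 0.324 in C57BF mouse 37, both given saline in room air, were those of the 2 mice with the highest summed FPKM of skeletal muscle markers, 117 and 856. The part of muscle RNA in these values was not tested.

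**Figure D4:**
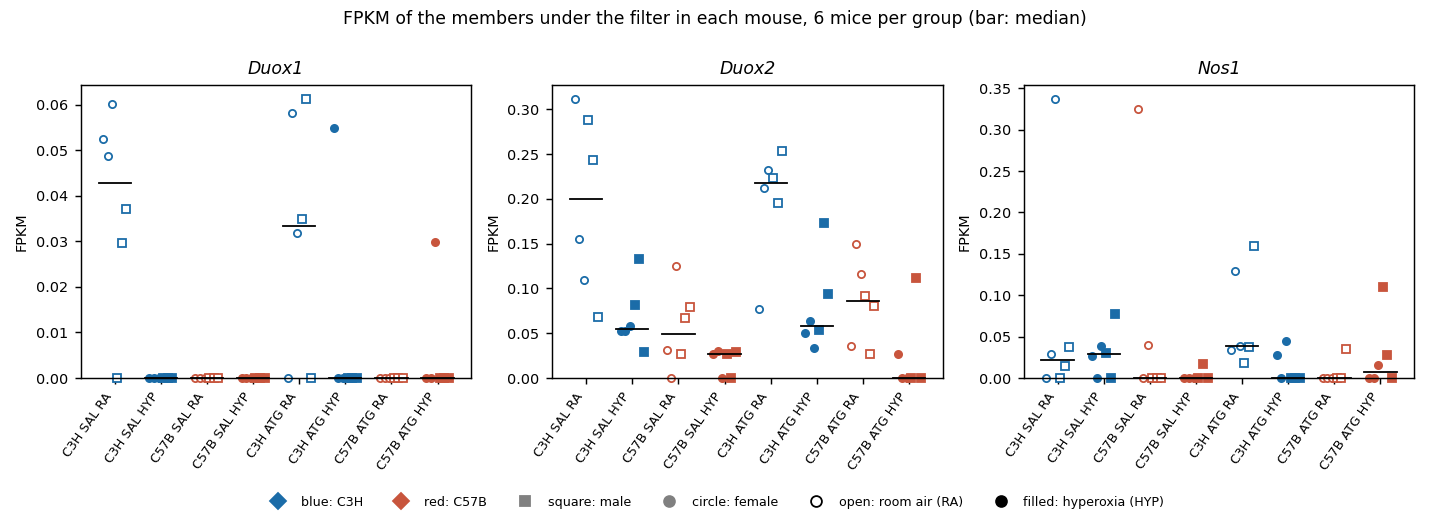
FPKM (linear axes of different range) of Duox1, Duox2 and Nos1, the members under the filter, in each of the 48 mice, in 8 groups of 6 mice by strain, injection and air; squares are males, circles females, open symbols room air, filled symbols hyperoxia, and the bar is the median. Duox1 was at 0.0613 FPKM at most, and 2 mice, both in room air, stood apart in Nos1 at 0.337 and 0.324.

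Over both strains ATG moved no member past the threshold. In room air the ATG minus saline differences of the 6 members lay between -0.17 (Ncf4) and 0.19 (Nox4), against 0.0185% of genes called by limma. In hyperoxia they lay between -0.19 (Ncf1) and 0.10 (Nox4), against 5.47%. The difference that ATG made to the hyperoxic change lay between -0.14 (Nos3) and 0.12 (Ncf4), against 2.77%. For Nos3 the 95% interval of that last value was -0.38 to 0.09, and for Nox4 it was -0.66 to 0.49, so sizable differences in Nox4 could have been missed. For Duox1, Duox2 and Nos1 the exact permutation p values were 0.675, 0.583413 and 0.4935 in room air and 0.5, 0.634375 and 0.7995 in hyperoxia, and 0.5 was the smallest possible for Duox1. The saline and ATG comparisons of hyperoxia used different mice and are given side by side.

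The values in hyperoxia average strains whose means differed in opposite directions. Nox4 had a mean of 8.14 FPKM with saline and 4.47 with ATG in C3H, and of 4.67 and 7.86 in C57B. Ncf4 had means of 15.7 and 21.6 in C3H and of 10.4 and 5.74 in C57B. The difference between the strains in the effect of ATG in hyperoxia was -1.36 (95% interval -2.44 to -0.29, limma adjusted p = 0.268) for Nox4 and 1.23 (0.13 to 2.33, adjusted p = 0.324) for Ncf4. Neither was called, against 0.416% of all genes.

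Of 11 oxidase partner genes, 10 had a row and 5 were tested, while Cybb and Nox1 were at 0 in all mice. In hyperoxia with saline 1 was higher and 2 were lower (60.1% of all genes were called), with a median change of -0.03 against 0.01 for all genes tested. Rac1, the small GTPase of the complex, was higher by a log2 change of 0.25 (SE 0.08, limma adjusted p = 0.00798, 0.0673 after scaling). Noxa1 and Noxo1, the activator and organiser used by Nox1, were lower by -0.53 and -0.60. In room air with saline Rac2, the Rac form of blood cells, was lower in C3H by -0.50 (adjusted p = 0.0459), a call lost when any of 9 of the 12 mice was left out, mice 1, 2 and 37 excepted (adjusted p = 0.0561 to 0.108), and in each alternative fit but that with a pseudocount of 0.1.

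With ATG several oxidase partners differed between the strains. The strain difference in the hyperoxic change was positive for 3 of the 5 tested and negative for 0, where 13.3% of all genes were called, with a median of 1.16 against 0.05 for all genes. With saline 0 of 5 were called, against 11.5%. The values were 2.97 (SE 0.26, limma adjusted p = 7.47e-07) for Noxo1, 1.46 for Rac2 and 1.16 for Noxa1. Noxo1 was at 2.23 to 4.12 FPKM in C3H given ATG in room air and at 9.61 over 15.0 to 34.6 in hyperoxia, and in C57B given ATG in hyperoxia at 0.532 to 1.75. It was also the 1 oxidase partner whose hyperoxic change differed by injection, at 1.17 (adjusted p = 0.00945). Noxo1 shares 63.6% of its 30-base sequences with Tbl3 on the other strand, so its level is uncertain. Tbl3 was at 12.1 to 18.2 FPKM in C3H and 15.2 to 21.0 in C57B, both given ATG in hyperoxia, and the part of its reads in the level of Noxo1 was not tested. Rac2 is expressed in neutrophils, whose markers moved in the same direction as given above.

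Among 12 genes of substrate and cofactor supply, 5 were higher and 5 lower in hyperoxia with saline, and 7 higher and 4 lower with ATG, against 60.1% and 61.8% of all genes called, with medians of 0.22 and 0.40 against 0.01 and 0.06 for all genes. Slc7a1, the main arginine transporter, rose by 1.78 (SE 0.07, limma adjusted p = 1.78e-13) with saline and 1.62 with ATG. Its median went from 2.42 to 15.6 FPKM in C57B given saline and from 2.90 to 9.21 in C3H, and the strain difference of the change was -0.89 (adjusted p = 0.000715), in the direction of that of Nos3. The arginase Arg2, which competes for arginine, rose by 1.39 with saline and 1.57 with ATG, and Slc7a2, another arginine transporter, rose by 0.99 with saline. Arg1 rose by 1.75 with ATG.

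The cofactor genes moved both ways. Gchfr, the feedback regulator of tetrahydrobiopterin synthesis, fell by 1.39 with saline and by 1.59 with ATG on the log2 scale. It was already higher in C3H than in C57B in room air and saline, by 1.71 (SE 0.18, limma adjusted p = 5.61e-05), with medians of 22.7 and 6.17 FPKM. Arg2 was lower in C3H there by -1.04 (adjusted p = 0.00168). The strain difference of the change with saline was positive for Pts and Spr, both enzymes of tetrahydrobiopterin synthesis, at 0.87 and 0.44, and neither was called after scaling. With ATG it was -0.82 for Slc7a1 and 0.57 for Pts (adjusted p = 0.045), and the call for Pts was lost when any of 16 of the 24 mice was left out (adjusted p = 0.0504 to 0.0892), and in each alternative fit but that with a pseudocount of 0.1 (adjusted p up to 0.0766).

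Of 13 regulators of synthase activity, 4 were higher and 5 lower in hyperoxia with saline and 4 higher and 6 lower with ATG, against 60.1% and 61.8% of all genes called, with medians of -0.06 and -0.05 against 0.01 and 0.06 for all genes. The pair of enzymes that degrade methylarginines, the natural inhibitors of nitric oxide synthases, moved in opposite directions. Ddah1 rose by 1.76 (SE 0.14, limma adjusted p = 1.2e-09) with saline and 1.78 with ATG, and Ddah2 fell by 1.22 (SE 0.08, adjusted p = 5.3e-11) and by 0.90. Cav1, the caveolin that binds and holds Nos3 inactive, fell by 0.76 with saline and by 1.20 with ATG. Dynll1, a dynein light chain that binds Nos1, fell by 0.97 with saline, and Nos1ap, a Nos1 adaptor, fell by 0.85 with ATG. The strain difference of the change with saline was called for 3 of 13: Calm3 (0.89), Ddah2 (0.69, not called after scaling) and Calm2 (-0.51). With ATG it was called for Ddah1 alone, at -0.59, and not with all 48 mice in 1 fit (adjusted p = 0.0856).

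Of 9 genes of the nitric oxide receptor and its effectors, 1 was higher and 3 lower with saline, and 2 higher and 4 lower with ATG, against 60.1% and 61.8% of all genes, with medians of -0.04 and -0.19. Both subunits of the nitric oxide receptor, soluble guanylate cyclase, fell: Gucy1a1 by 1.86 (SE 0.18, limma adjusted p = 4.57e-08) with saline and by 2.12 with ATG, and Gucy1b1 by 1.34 and by 1.69. Pde5a, the phosphodiesterase that degrades cyclic GMP, fell by 2.07 (SE 0.15, adjusted p = 4.34e-10) and by 2.25. Vasp, a substrate of cyclic GMP-dependent kinase, rose by 0.50 and 0.51. In C57B given saline, where Nos3 rose, Gucy1a1 was at a median of 31.3 FPKM in room air and 5.69 in hyperoxia. The strain difference of the change with saline was positive for Pde5a (1.19, adjusted p = 0.014) and Gucy1b1 (0.79, adjusted p = 0.0368), and the latter was not called after scaling, without a filter or when any of 14 of the 24 mice was left out (adjusted p = 0.0508 to 0.0708). Between the sexes in room air and saline, Prkg2, a cyclic GMP-dependent kinase, was called in this list, higher in males by 0.79 (adjusted p = 0.0123).

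**Figure D5:**
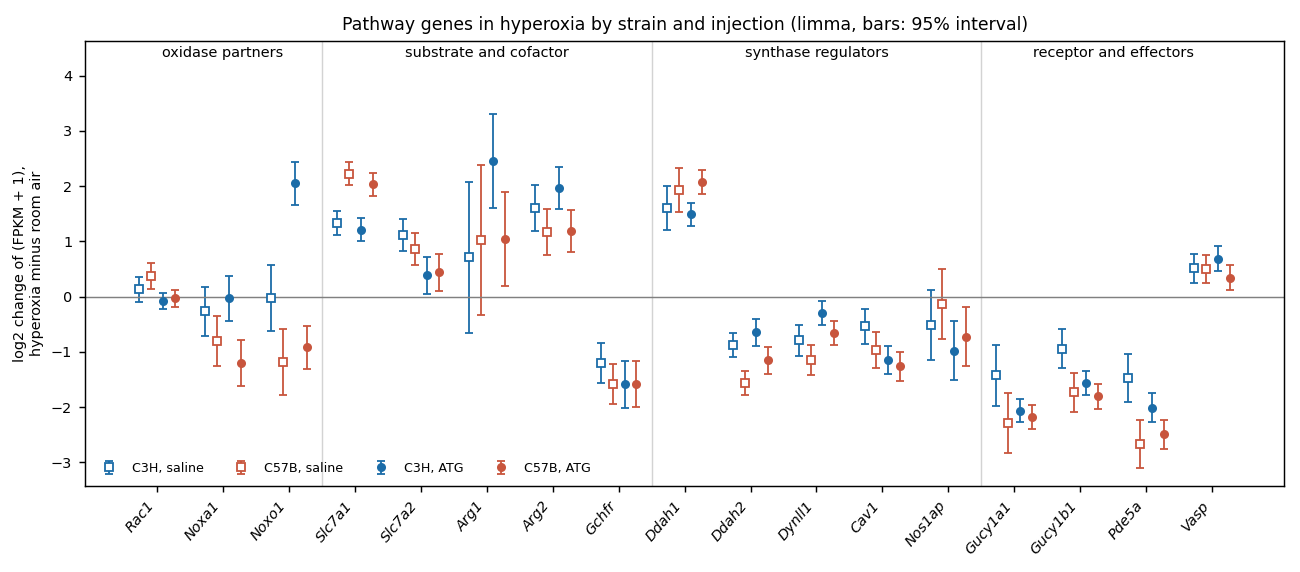
Log2 change of (FPKM + 1) from room air to hyperoxia (vertical axis) for the pathway genes named in the text, by strain and injection, with open squares for saline, filled circles for ATG, blue for C3H and red for C57B; points are limma estimates and bars 95% intervals. Slc7a1, Arg2 and Ddah1 lay above 0 and Gchfr, Ddah2, Gucy1a1, Gucy1b1 and Pde5a below 0 in all 4 settings.

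ATG changed 3 pathway genes in hyperoxia, where 5.47% of all genes were called. Noxo1 changed by 1.27 (SE 0.16, limma adjusted p = 0.000523), Dynll1 by 0.41 and Slc7a2 by -0.39. The same 3 were called for the difference of the hyperoxic change by injection, at 1.17, 0.49 and -0.57, against 2.77% of all genes called. The call for Slc7a2 was lost when any of 7 of the 48 mice was left out (adjusted p = 0.0512 to 0.0605) and without a filter (adjusted p = 0.0508). The call for Dynll1 was lost after scaling (0.45, adjusted p = 0.0609). Without both C3HM mice 1 and 3 neither was called, at 0.36 (adjusted p = 0.0809) for Dynll1 and -0.53 (adjusted p = 0.0765) for Slc7a2. In room air ATG changed 0 of the 40 pathway genes tested, against 0.0185% of all genes called.

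The genes whose pattern over the 48 mice was most like that of a member are given as a description, since mice of 1 group share their treatment and the points are not independent. Pearson r of log2(FPKM + 1) was 0.934 between Nox4 and Sdpr, 0.919 with Aldh6a1 and 0.915 with Ogn, among 16993 genes. For Nos3 it was 0.910 with Dbn1, 0.907 with Itga5 and 0.897 with Hmga2. Ncf4 came closest to Amica1 (0.838), H2-Q10 (0.822) and Lilra6 (0.793), and Ncf1 to Ptpn6 (0.764), Parvg (0.731) and Myo1f (0.726). Nos2 came closest to Prcp (0.822), Kif26a (0.812) and Efnb2 (0.811), and Cyba to Psma7 (0.801), Pfn1 (0.800) and Il1rn (0.783). The member most like Cyba was Ncf4 at 0.738, whereas Cyba and Nox4 gave -0.514.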

How the data were processed

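The authors aligned lung RNA reads to mm10 (GRCm38) with GSNAP and deposited 1 table of FPKM values from Cufflinks, per the labels and the paper. The study's methods describe no library step that keeps strand. The annotation release and whether the counting used strand are not given in the sources used here. Groups came from the sample labels. Mice carry numbers of their own, so groups are not paired, and p-values measure the spread between mice.

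Models of group means of log2(FPKM + 1) were fitted in R 4.3.3 by limma 3.58.1 (eBayes with trend), after removal of genes that reached 1 FPKM in fewer than 3 mice of the fit. Strain and sex were compared in the 12 mice given saline in room air, hyperoxia in the 24 mice of 1 injection, and ATG in the 24 mice of 1 air or in all 48. Members under the filter were compared by exact permutation. One gene with failed estimates, Akap5, was left out. Since the table holds no counts, no depth or counting error can be given. Of 47561 genes, 47145 were found in GENCODE M21, which gave coordinates and shared 30-base sequences.

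The members and the pathway and marker lists were chosen with earlier results of these data known. All 9 members are accounted for in the comparisons of strain, sex, hyperoxia and ATG. The 6 above the filter were also tested in differences between such changes. Those of the hyperoxic change by sex and of ATG in hyperoxia by strain are given for some members only. Of the pathway lists, the called genes with the largest changes (at most 4 per list and comparison) and genes at 0 are named, and 3 genes most like each member. Other mentions of listed genes were chosen after their values were seen. Some listed genes are not reported here and were left out of the list counts. Alternatives were a pseudocount of 0.1, no filter, scaling by median ratios, all 48 mice in 1 fit and each mouse left out. Comparisons added after seeing the data were those within ATG by strain and of the hyperoxic change by sex within a strain. Another was that of ATG in hyperoxia by strain (members only, as for the sex comparison in C57B). Fits without both C3HM mice 1 and 3 were also added then. They leave mouse 2 as the only C3HM mouse given saline in room air. Data for hyperoxia with saline were simulated with 200 of 16321 genes changed by 1 on the log2 scale. Of these changes 93.5% were recovered, and 8.78% of the calls were false. For the strain difference of that change 57% were recovered, and 2.56% of the calls were false. In the data 60.1% and 11.5% of genes were called, far more than were changed in the simulation, so these rates need not hold there.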

Additional observations from a re-analysis of the deposited data

Results flagged for a closer look

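The strain difference in the hyperoxic change passed the test for Nos3 with saline (-1.33, C3H minus C57B) and with ATG (-1.62), and with ATG for Cyba (0.62) and Ncf4 (1.61), on the log2 scale. 

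Single mice stood apart from the other 5 of their strain, injection and air by Dixon's ratio (over 0.625) in 15 of 68 groups. Chance gives about 1 in 20 where values are normally distributed. For Ncf1 the mice were mouse 43 at 23.1 FPKM (C57B, saline, hyperoxia) and mouse 46 at 17.4 (C57B, ATG, hyperoxia). For Ncf4 they were mouse 33 at 41.4 FPKM (C3H, saline, hyperoxia) and mouse 48 at 12.2 (C57B, ATG, hyperoxia). Nos2 was at 1.26 FPKM in mouse 22 and Nos3 at 11.2 in mouse 47, both C57B with ATG in hyperoxia. Duox1 was at 0.0550 FPKM in mouse 34 (C3H) and 0.0300 in mouse 48 (C57B), both with ATG in hyperoxia. Duox2 was at 0.0767 FPKM in mouse 28 (C3H, ATG, room air) and 0.112 in mouse 23 (C57B, ATG, hyperoxia). Nos1 was at 0.337 FPKM in mouse 27 (C3H, saline, room air), 0.324 in mouse 37 (C57B, saline, room air), 0.110 in mouse 22 (C57B, ATG, hyperoxia), 0.0354 in mouse 18 (C57B, ATG, room air) and 0.0167 in mouse 20 (C57B, saline, hyperoxia). Of these 15, 4 concern Duox1 or Nos1 in groups where the other 5 mice were listed at 0. Values of Duox1, Duox2 and Nos1 lay near 0, so the rate of 1 in 20 cannot be applied to them.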

How the results depend on the processing

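Of 26 called member values, 104 of 112 alternative fits kept the call and 8 lost it, with 0 reversed. With a mouse left out, 23 of the 26 were never lost. The exceptions were Ncf1 between strains, Cyba over both strains with saline and Ncf4 in C57B with ATG. Of 54 pathway values named or called, 42 were never lost and 0 reversed, while 8 were lost under scaling. Without both C3HM mice 1 and 3 the strain difference of the hyperoxic change with saline was not called for Pde5a (1.08, adjusted p = 0.0586), Gucy1b1, Spr and Calm3.

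Scaling by median ratios moved the median change of all genes from 0.15 to 0.00 for the strain difference of the hyperoxic change with saline, from 0.21 to 0.00 for the sex difference of that change in C3H, from -0.15 to -0.01 for the strain difference between the sexes, from -0.12 to -0.01 between sexes, and from 0.11 to 0 (ATG) and 0.10 to -0.02 (saline) for hyperoxia in C3H. The calls between strains were 609 higher and 1223 lower, and 933 and 998 after scaling. For hyperoxia in C3H they went from 4130 and 2039 to 2934 and 3080 with saline, and from 4934 and 2832 to 3765 and 3755 with ATG. For the strain difference of that change they went from 1422 and 458 to 917 and 1084 with saline, and from 1340 and 816 to 1121 and 1300 with ATG.

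Counts of called genes moved more. With all 48 mice in 1 fit they were 2982 between strains (1832 before), 1915 between sexes (104), 748 for their interaction (0), 2994 for the strain difference of the hyperoxic change with saline (1880), 286 for the sex difference of that change in C3H with saline (1) and 1 with ATG (5), 6 for that in C57B with saline (2) and 18 with ATG (28), and 234 for the strain difference of ATG in hyperoxia (66). Without a filter they were 40 between sexes, 2 for the interaction, 0 and 4 for the sex difference in C3H and C57B with saline, 5 for ATG in room air (3) and 313 for ATG by hyperoxia (470), a pseudocount of 0.1 gave 5 for the interaction, and scaling gave 1 for the sex difference in C57B with saline. Without both C3HM mice 1 and 3 they were 30, 1 and 0 for the first of these, and 5 for ATG in room air. With 1 mouse left out they ran from 1306 to 4021 between strains, 20 to 3640 between sexes, 0 to 2741 for the interaction, 1400 to 3242 for the strain difference with saline, 0 to 2415 and 2 to 7 for the sex difference in C3H with saline and ATG, 1 to 144 (without mouse 19) and 14 to 46 for that in C57B, 37 to 302 (without mouse 33) for the strain difference of ATG in hyperoxia, 3 to 32 for ATG in room air, 443 to 1096 for ATG in hyperoxia (868) and 243 to 1093 for ATG by hyperoxia. The highest counts between strains (4021), between sexes (3640), for the interaction (2741) and for the sex difference (2415) came without C3HM mouse 2.

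Directions reversed only in uncalled values. Ncf4 was -0.061 between strains, 0.045 for ATG in room air and -0.092 for ATG by hyperoxia without both C3HM mice 1 and 3, and scaling gave -0.12 for hyperoxia in C3H with saline and -0.035 for the strain difference of that change. With 1 mouse left out these last were -0.24 to 0.23 and -0.12 to 0.46, Ncf4 was -0.43 to 0.077 and Cyba -0.086 to 0.14 for hyperoxia in C57B with saline, and Nox4 was -0.062 to 0.21 for ATG in hyperoxia. The causes were not tested. No paired analysis was possible because each mouse has its own number.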
